A study of Arabidopsis thaliana with 9 samples.

Results

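The genes described here are 9 autophagy genes of Arabidopsis thaliana: ATG8B (AT4G04620), ATG8C (AT1G62040), ATG8D (AT2G05630), ATG8E (AT2G45170), ATG8F (AT4G16520), ATG8G (AT3G60640), ATG8H (AT3G06420), ATG3 (AT5G61500) and AT5G66930, which the gene table lists with the synonym ATG101. They were chosen by name, with earlier results of these data known, as the ATG8 genes B to H with ATG3 and AT5G66930. ATG8A and ATG8I, also on the array, are not among the 9 and are given further below. Each of the 9 was found on 1 probe set that the probe table ties to a single gene. They are 9 of the 13356 genes on such probe sets. The data were MAS5 signals of 9 Affymetrix ATH1 arrays hybridised with RNA of whole roots, 3 biological replicates in each of 3 groups, at 7 days after germination. All plants carried ga1-3, a mutation of the gibberellin biosynthesis gene GA1, so the plants used as controls were gibberellin-deficient too. The groups were ga1-3 alone, ga1-3 scl3-1, a double mutant that has also lost the function of SCL3, and ga1-3 SCL3OE, in which SCL3, a GRAS family gene of the gibberellin pathway, was overexpressed. The promoter behind the overexpression, the number of independent lines and the number of seedlings per sample are not given in the sources used here. Neither SCL3 nor GA1 was on a named probe set, so the manipulated genes did not serve as a check of the labels.

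Autophagy delivers cytoplasm and organelles to the vacuole in double-membrane vesicles, and plants depend on it when nitrogen or carbon is short. ATG8 is a small ubiquitin-like protein that is trimmed at its C terminus by the protease ATG4 and then attached to phosphatidylethanolamine in the growing membrane. ATG7 activates it and ATG3, the E2-like enzyme, passes it to the lipid. ATG101 is a subunit of the ATG1 kinase complex that starts the process. Arabidopsis has a family of ATG8 genes, and ATG8H and ATG8I differ from the rest in that their proteins end with the glycine already exposed.

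The SCL3OE arrays stood apart from the other 6, among which ga1-3 and scl3-1 did not separate by array correlation. Pearson's r across kept probe sets, a description of the profiles in which genes do not stand for replicates, was 0.978 to 0.990 within groups, 0.978 to 0.985 between ga1-3 and scl3-1 arrays and 0.929 to 0.945 between SCL3OE arrays and the other 6. Upper signals were spread further in SCL3OE, with a 99th percentile of 8374 to 9087 against 5846 to 6649 elsewhere and a median of 183 to 185 against 190 to 204. Of 5 listed root hair and cortex markers, 4 were on named probe sets. Their summed signal was 4017 to 4461 in ga1-3, 4288 to 5140 in scl3-1 and 2319 to 2446 in SCL3OE. Bright probe sets weigh most in such a sum, and the 4 falls were of unlike size. The log2 changes in SCL3OE against ga1-3 were -0.37 for EXPA7, -0.91 for EXPA18, -1.14 for AT1G09750 and -0.63 for AT1G62500. The 8 listed markers of endodermis, stele and root nutrient transport were not measured by a named probe set. Of 6 listed markers of green shoot tissue, 2 were measured, LHCB4.1 and RCA, and their sum was 1764 to 1921 in ga1-3, 1936 to 2210 in scl3-1 and 1830 to 1871 in SCL3OE. The sum hides opposite changes in SCL3OE against ga1-3, where LHCB4.1 fell (-0.51, limma adjusted p = 0.00405) and RCA rose (0.32, adjusted p = 0.0211). None of these measured markers was near 0.

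All 9 autophagy genes gave clear signal. The lowest value of any of them on any array was 220, for ATG8B, against a mean of 106 for the 40th percentile of the arrays, the level used to leave out dim probe sets. All 9 therefore entered the test in each comparison. A gene is called here at a Benjamini-Hochberg adjusted p under 0.05 over all 14117 kept probe sets, from limma on log2 signals. Each standard error (SE) and 95% interval is that of the limma model. Signals of different probe sets are not set against each other, because brightness depends on the probes.

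**Figure D1:**
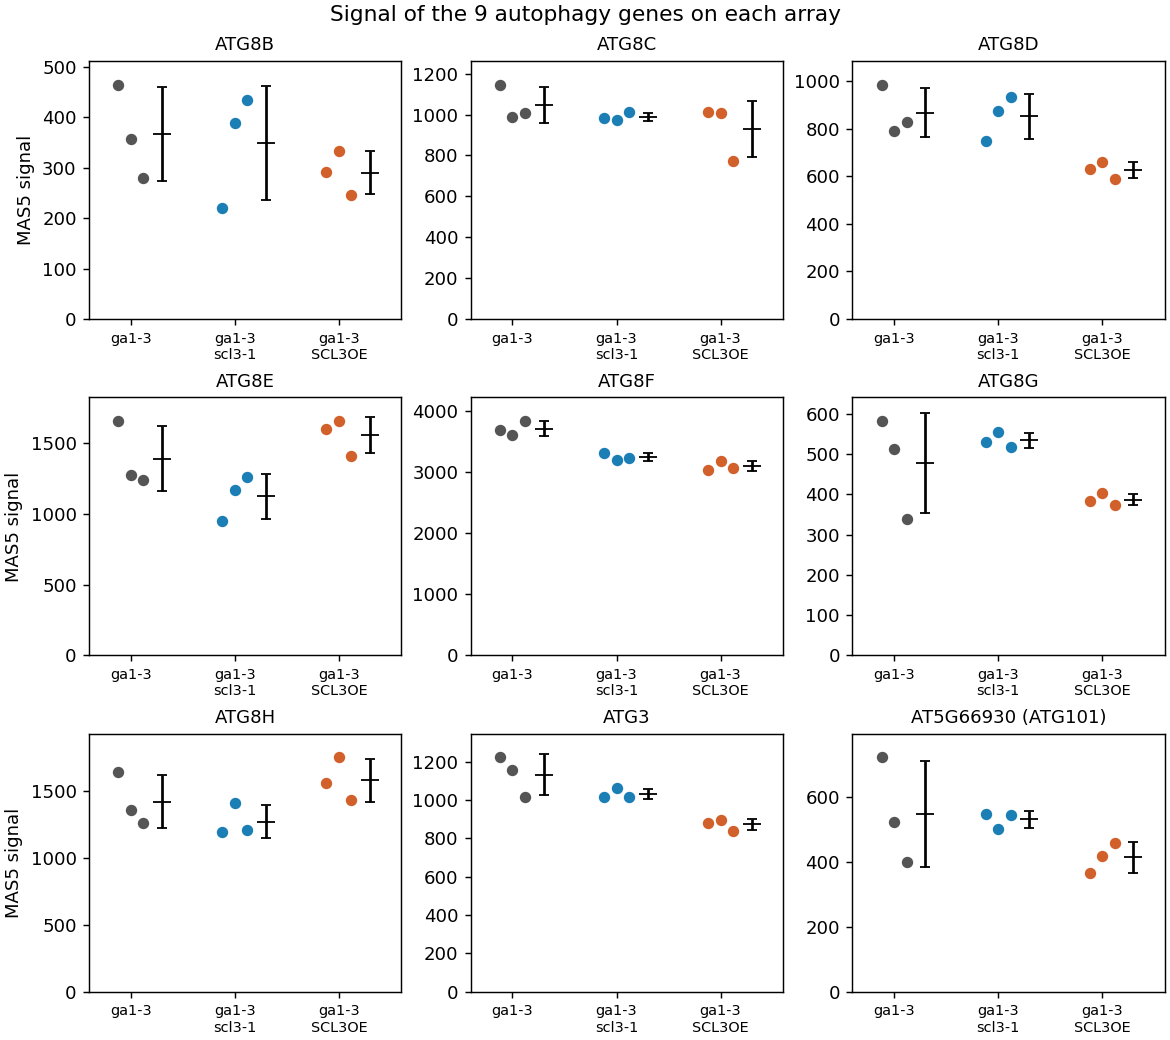
MAS5 signal (linear scale from 0) of each autophagy gene on the 9 arrays, with points for replicates 1 to 3 from left to right in each group and a bar for the group mean with its SD (n = 3). ATG8D, ATG8F and ATG3 lie lower on all 3 SCL3OE arrays than on any ga1-3 array. Against scl3-1, ATG8E and ATG8H lie higher on all 3 SCL3OE arrays than on any scl3-1 array. ATG8D, ATG8F, ATG8G, ATG3 and AT5G66930 lie lower on all 3 SCL3OE arrays than on any scl3-1 array.

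The line overexpressing SCL3 was set against ga1-3 to ask how the 9 genes differ with SCL3 overexpression in gibberellin-deficient roots. ATG8D, ATG8F and ATG3 fell in it, by 1.38-fold, 1.20-fold and 1.29-fold, and no autophagy gene was called as higher. The other 6 did not pass the test. The 3 called genes, all of them lower, are 33.3% of the 9. Of all kept probe sets, 43.8% were called in either direction and 25.9% were called as lower. The same 3 genes were lower on all SCL3OE arrays than on any ga1-3 array, as were 31.5% of all kept probe sets. The median log2 change of the 9 was -0.27, against -0.07 over all kept probe sets. Because the 9 were chosen with earlier results known, such shares and medians are descriptions, here and in the other comparisons. In whole roots, fewer cells of a type and less RNA per cell cannot be told apart. The root hair and cortex markers were lower in SCL3OE as well, and their part in these falls was not tested.

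ATG8D, which encodes one of the ubiquitin-like ATG8 proteins, gave signals of 987, 791 and 827 on the ga1-3 arrays, 751, 873 and 936 on the scl3-1 arrays and 631, 659 and 591 on the SCL3OE arrays. The SCL3OE arrays were the low ones, below every array of both other groups, while ga1-3 and scl3-1 overlapped. Its log2 change in SCL3OE against ga1-3 was -0.46 (SE 0.11, limma adjusted p = 0.00392), larger in size than that of 71.2% of kept probe sets. This call held under all 17 alternatives, with changes of -0.53 to -0.34.

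ATG3, the gene of the E2-like enzyme that joins ATG8 to its lipid, had signals of 1222, 1156 and 1016 in ga1-3. They were 1018, 1062 and 1016 in scl3-1 and 880, 897 and 840 in SCL3OE. Every SCL3OE array was below every other array, and the scl3-1 arrays lay within the range of ga1-3 apart from 1 that was lower by less than 1 unit of signal. The log2 change against ga1-3 was -0.37 (SE 0.10, limma adjusted p = 0.00534), and it too was called under all 17 alternatives.

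ATG8F was the tightest of the 9 within ga1-3. Its signals were 3703, 3609 and 3845 in ga1-3, 3324, 3199 and 3230 in scl3-1 and 3038, 3193 and 3070 in SCL3OE. All ga1-3 arrays were above all others, and each SCL3OE array was below each scl3-1 array, the nearest pair by a small margin. Its log2 change in SCL3OE against ga1-3 was -0.26 (SE 0.08, limma adjusted p = 0.0144). The call ended without SCL3OE replicate 1 (-0.25, adjusted p = 0.0561) and with arrays centred on their median (-0.18, adjusted p = 0.114), whereas quantile normalization made the change larger (-0.41, adjusted p = 0.00082).

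The remaining ATG8 genes and AT5G66930 did not pass against ga1-3. ATG8E and ATG8H had positive changes of 0.17 (95% interval -0.10 to 0.44) and 0.16 (-0.09 to 0.40). The changes of ATG8B, ATG8C and ATG8G were -0.32 (-0.79 to 0.16), -0.18 (-0.42 to 0.06) and -0.27 (-0.60 to 0.06). The intervals of all 5 include 0. For AT5G66930 the change was -0.37 (-0.72 to -0.012), with an unadjusted p of 0.0434 and an adjusted p of 0.0871 in limma.

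A shared order of the replicates within ga1-3 and within SCL3OE limits what can be said of these genes. Replicate 1 of ga1-3 was the highest of its group for 8 of the 9 genes, where it was the highest for 40.8% of all kept probe sets, and replicate 3 was the lowest for 6, as for 34.8% of all kept probe sets. Within SCL3OE, replicate 2 was the highest for 7 of the 9 genes, as for 32.6% of all kept probe sets. Replicate 3 of SCL3OE was the lowest for 7, as for 34.9% of all kept probe sets. The ga1-3 signals of AT5G66930 were 722, 522 and 399, and those of ATG8G were 582, 511 and 340. Without ga1-3 replicate 3, both passed the test as lower in SCL3OE, AT5G66930 with a log2 change of -0.57 (limma adjusted p = 0.00663) and ATG8G with -0.50 (adjusted p = 0.00329), so that 5 genes were called. Without ga1-3 replicate 1 the same changes were -0.15 and -0.11 and did not pass (adjusted p = 0.414 and 0.581), while ATG8D, ATG8F and ATG3 were called. The within-group SD of log2 signal had a median over the 9 genes of 0.19 in ga1-3, 0.07 in scl3-1 and 0.12 in SCL3OE, against 0.15, 0.13 and 0.11 over all kept probe sets.

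**Figure D2:**
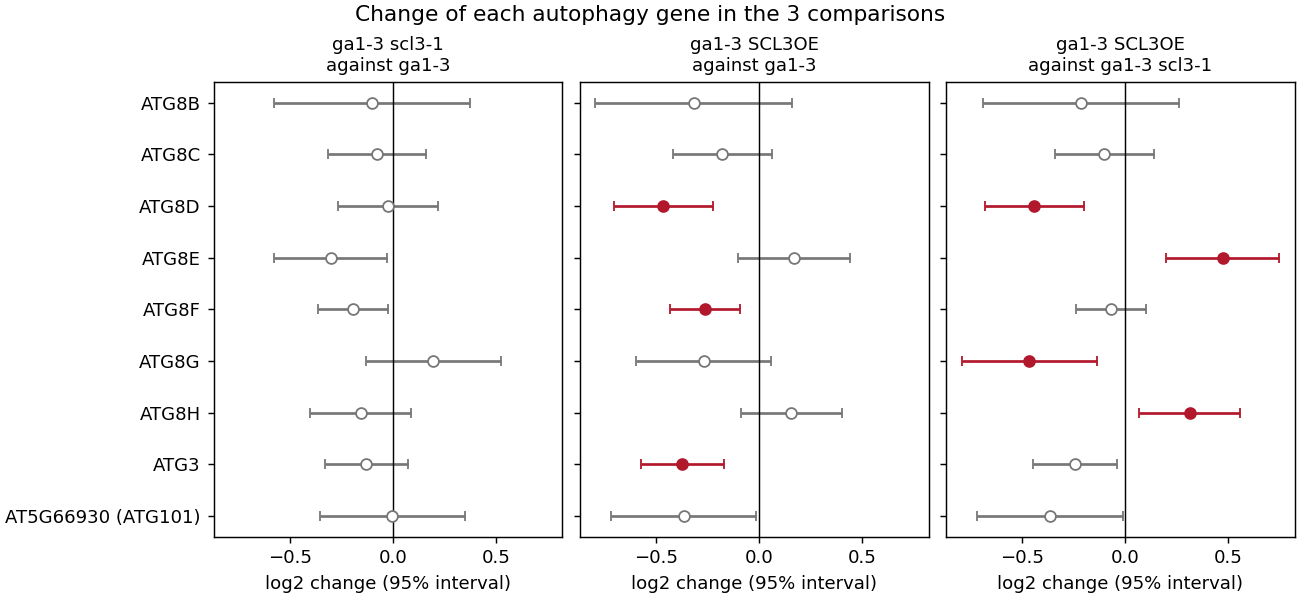
Log2 change of each autophagy gene with its 95% interval from limma, in 3 panels for the 3 comparisons, with filled red points for genes called at an adjusted p under 0.05 and open grey points for the others. No gene is called in scl3-1 against ga1-3, 3 are called as lower in SCL3OE against ga1-3, and 2 as higher and 2 as lower in SCL3OE against scl3-1.

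Loss of SCL3 was examined by setting ga1-3 scl3-1 against ga1-3. No autophagy gene passed the test (0 of 9 in limma, where 0.538% of all kept probe sets were called). The count was 0 under all 17 alternatives too. At an unadjusted p under 0.05 there were 2 genes, ATG8E and ATG8F, where 10.7% of all kept probe sets reached that level. ATG8F was at 3199 to 3324 in scl3-1 against 3609 to 3845 in ga1-3, without overlap, as were 14.1% of all kept probe sets. Its log2 change was -0.19 (95% interval -0.36 to -0.02, limma adjusted p = 0.384).

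ATG8E had the larger change of these, -0.30 (95% interval -0.58 to -0.03, limma adjusted p = 0.407), but its arrays overlapped. Its signals were 1658, 1273 and 1243 in ga1-3 and 950, 1169 and 1259 in scl3-1. Of the 9 genes, 8 had a negative change and ATG8G a positive one, 0.20 (95% interval -0.13 to 0.52), and the median was -0.10 against 0.01 over all kept probe sets. The signs of ATG8B, ATG8D, ATG8G and AT5G66930 turned when 1 array was left out. For AT5G66930 the change was -0.0024 (95% interval -0.36 to 0.35) with scl3-1 signals of 548, 501 and 545.

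The line overexpressing SCL3 was compared directly with the double mutant that lost its function, a comparison that shares its arrays with both others. ATG8E and ATG8H were higher in SCL3OE than in scl3-1, by 1.39-fold and 1.24-fold, and ATG8D and ATG8G were lower, by 1.36-fold and 1.38-fold. The other 5 genes did not pass. These 4 genes are 44.4% of the 9, where 39.2% of all kept probe sets were called, 15.5% as higher and 23.6% as lower. The median log2 change was -0.21 over the 9 genes and -0.07 over all kept probe sets.

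ATG8E had the widest span of group means among the 9. Its SCL3OE signals of 1603, 1654 and 1412 were all above the scl3-1 signals given above. The ga1-3 arrays overlapped both groups. The log2 change was 0.47 (SE 0.13, limma adjusted p = 0.00854) and stayed called under all 17 alternatives, at 0.36 to 0.59. The order of its group means was SCL3OE, ga1-3, scl3-1, with only the outer pair differing by the test.

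ATG8H, whose protein needs no trimming to expose its terminal glycine, followed the same order of group means. Its signals were 1644, 1360 and 1267 in ga1-3, 1196, 1413 and 1211 in scl3-1 and 1561, 1755 and 1434 in SCL3OE. The lowest SCL3OE array was just above the highest scl3-1 array, and ga1-3 overlapped both. The log2 change of SCL3OE against scl3-1 was 0.31 (SE 0.12, limma adjusted p = 0.0418). This call was fragile: it ended without ga1-3 replicate 2 (adjusted p = 0.0502), scl3-1 replicate 1 (0.111), scl3-1 replicate 3 (0.122), SCL3OE replicate 1 (0.089) or SCL3OE replicate 2 (0.181), without a dim filter (0.0585) and by eBayes without trend (0.0719).

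ATG8D and ATG8G were the genes lower in SCL3OE than in scl3-1. For ATG8D the log2 change was -0.44 (SE 0.11, limma adjusted p = 0.00633), called under all 17 alternatives at -0.53 to -0.32. ATG8G had signals of 530, 554 and 518 in scl3-1 and 384, 403 and 374 in SCL3OE, which did not overlap, whereas its ga1-3 arrays spread over both. Its change was -0.47 (SE 0.15, limma adjusted p = 0.0257). The ATG8G call ended when any 1 of 5 arrays was left out, scl3-1 replicate 1 (0.0514), scl3-1 replicate 2 (0.0743) or SCL3OE replicates 1, 2 and 3 (0.0657, 0.0511 and 0.0744), and after quantile normalization (-0.33, 0.103) or median-centring (-0.35, 0.08).

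ATG3 and AT5G66930 did not pass in this comparison, ATG3 by a small margin. The log2 change of ATG3 was -0.24 (SE 0.10, limma adjusted p = 0.055) and that of AT5G66930 -0.36 (SE 0.17, adjusted p = 0.0966). The AT5G66930 signals of 365, 419 and 459 in SCL3OE were all below those in scl3-1. In all, 5 of the 9 genes were lower on all 3 SCL3OE arrays than on any scl3-1 array and 2 were higher, where 31.5% and 21.3% of all kept probe sets were. Both genes passed when ga1-3 replicate 1 (0.0381 and 0.026) or ga1-3 replicate 3 (0.0376 and 0.0382) was left out, or with only the 6 arrays compared (0.0329 and 0.0164), and 6 genes were then called. ATG3 alone also passed with the 60th percentile filter (0.0472). Both genes were further from the threshold under other scalings. After quantile normalization the changes were -0.15 and -0.22 (limma adjusted p = 0.262 and 0.31). With median-centring they were -0.12 and -0.24 (0.342 and 0.241).

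ATG8B and ATG8C showed no called change in any comparison. ATG8B was the noisiest, at 465, 356 and 279 in ga1-3, 220, 389 and 435 in scl3-1 and 291, 333 and 247 in SCL3OE, with all groups overlapping. Without scl3-1 replicate 1, its lowest array, it was called as lower in SCL3OE than in scl3-1 (-0.51, limma adjusted p = 0.0458). ATG8C gave 1147, 988 and 1006 in ga1-3, 982, 975 and 1013 in scl3-1 and 1011, 1006 and 774 in SCL3OE. The groups overlapped, and without SCL3OE replicate 3, its lowest array, the change against scl3-1 was 0.027. The 95% interval of the ATG8C change was -0.42 to 0.06 against ga1-3 and -0.34 to 0.14 against scl3-1.

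**Figure D3:**
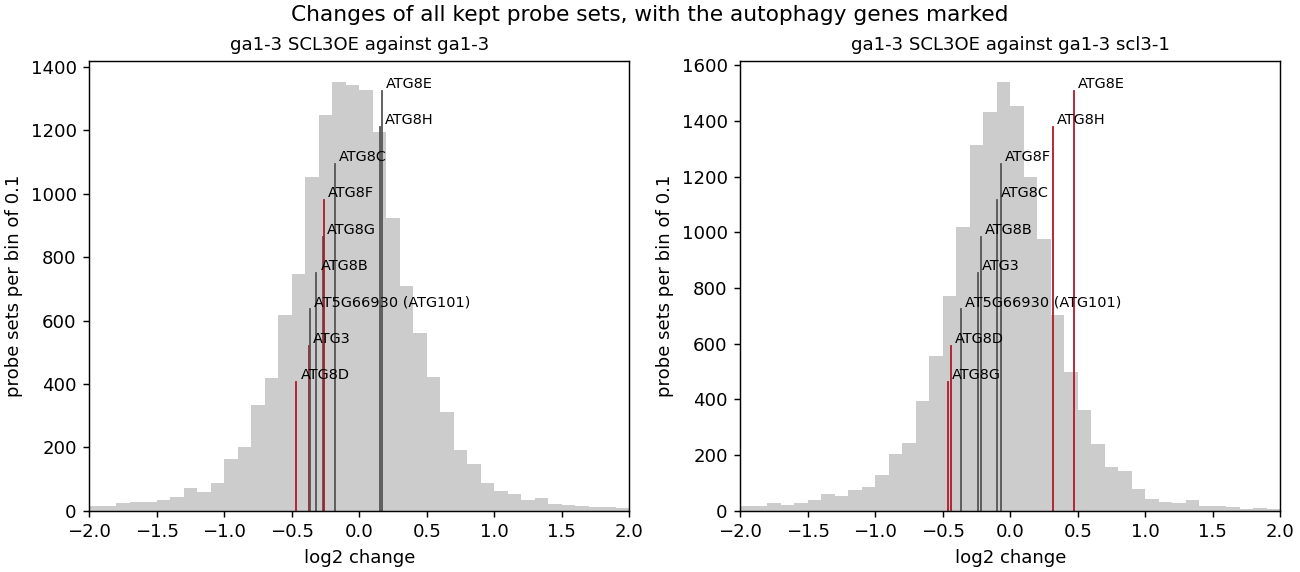
Grey bars give the number of kept probe sets per 0.1 of log2 change (range shown -2 to 2) in SCL3OE against ga1-3 and against scl3-1, and vertical lines mark the autophagy genes, red where called and dark grey otherwise (line height only separates the labels). The autophagy genes lie within the body of the distribution, between -0.46 and 0.17 on the left and between -0.47 and 0.47 on the right.

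The profiles of the 9 genes over the arrays can be compared after centring each on its own mean. The root mean square (RMS) difference between 2 genes was smallest for ATG8F and ATG3, at 0.11 on the log2 scale over 9 arrays. ATG8E and ATG8H, the genes with positive changes in SCL3OE, were 0.13 apart. So were ATG8C and ATG8F, ATG8C and ATG3, and ATG8D and ATG3. ATG8G and AT5G66930, which shared high ga1-3 replicate 1 and low ga1-3 replicate 3 values, were 0.15 apart. These are descriptions of 9 arrays that share groups and scaling.

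The kept probe sets most like ATG8E by this measure, out of 7672 with 1 gene, were those of AT1G52140, AT4G16447, PPR336 (AT1G61870), AT1G17510 and AT3G52920, with RMS differences of 0.09 to 0.11. AT1G52140, the closest, gave 669, 606 and 510 in ga1-3, 402, 516 and 550 in scl3-1 and 617, 667 and 549 in SCL3OE. Like ATG8E, it was highest on ga1-3 replicate 1 within its group and lowest on scl3-1 replicate 1.

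The ATG8 family has further members on the array. ATG8A (AT4G21980, named APG8A in the probe table) had signals of 2223, 1820 and 1711 in ga1-3, 1715, 1714 and 2044 in scl3-1 and 2374, 2148 and 1862 in SCL3OE. ATG8I is AT3G15580, which the probe table names APG8H and which is a different gene from ATG8H. It gave 2803, 2327 and 2476 in ga1-3, 2548, 2381 and 2747 in scl3-1 and 2806, 2964 and 2576 in SCL3OE. Neither was called in any comparison. Against ga1-3, their log2 changes in SCL3OE were 0.15 (95% interval -0.10 to 0.41) and 0.14 (-0.07 to 0.34), and against scl3-1 they were 0.22 (-0.03 to 0.47) and 0.12 (-0.09 to 0.33). With median-centred arrays ATG8A was called as higher in SCL3OE than in scl3-1 (0.34, limma adjusted p = 0.0279).

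Of 40 other autophagy and upstream kinase genes listed, ATG8A and ATG8I among them, 12 were on named probe sets and 10 were tested. In scl3-1 against ga1-3, limma called 0 of the 10, where 0.538% of all kept probe sets were called. At an unadjusted p under 0.05 there were 0 of the 10, where 10.7% of all kept probe sets reached that level. In SCL3OE against ga1-3, 2 were called as lower, 0 as higher and 8 did not pass, where 43.8% of all kept probe sets were called. The median log2 change was -0.13 against -0.07 over all kept probe sets. In SCL3OE against scl3-1, 1 fell and 9 did not pass, where 39.2% of all kept probe sets were called. Of the 7 listed transcripts of sugar starvation and darkness, 0 were on a named probe set.

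By role, the conjugation list had 4 of 10 genes tested, the initiation kinase list 3 of 7, the phosphatidylinositol 3-kinase list 2 of 6 and the upstream kinase list 1 of 4 (RAPTOR1, whose protein is a partner of the TOR kinase that restrains autophagy), while the lists for membrane supply and cargo receptors had none. Several of these genes have no name in the tables used here and are given by their identifier. AT3G59950, in the conjugation list, had signals of 601, 611 and 641 in ga1-3, 619, 659 and 678 in scl3-1 and 468, 561 and 477 in SCL3OE. Its SCL3OE arrays were all below the others. The log2 change was -0.30 (SE 0.10, limma adjusted p = 0.0266) against ga1-3 and -0.38 (SE 0.10, adjusted p = 0.00861) against scl3-1.

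AT1G77890, in the phosphatidylinositol 3-kinase list, fell from 178, 188 and 202 in ga1-3 to 132, 153 and 155 in SCL3OE (-0.37, SE 0.14, limma adjusted p = 0.0449), with no overlap. Its scl3-1 arrays, at 184, 165 and 153, overlapped both groups. The 2 falls against ga1-3 were fragile. With median-centred arrays neither passed (adjusted p = 0.1 for AT3G59950 and 0.127 for AT1G77890), nor after quantile normalization (-0.17, 0.215 and -0.30, 0.11). The fall of AT3G59950 against scl3-1 ended under both of these scalings too, at -0.25 (adjusted p = 0.0827) with quantile normalization and -0.26 (0.0591) with median-centring. The AT3G59950 call also ended without ga1-3 replicate 2 (0.0526), ga1-3 replicate 3 (0.0708), SCL3OE replicate 1 (0.11) or SCL3OE replicate 3 (0.0953). The AT1G77890 call ended without any 1 of 7 arrays. These were ga1-3 replicates 2 and 3 (0.0866 and 0.123), scl3-1 replicates 2 and 3 (0.0582 and 0.0529) and SCL3OE replicates 1, 2 and 3 (0.156, 0.0667 and 0.0589). The AT1G77890 call also ended without a dim filter (0.0832), and it held under 4 of the 16 alternatives in which the gene was tested.

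Among the genes that did not pass, AT5G50230 of the conjugation list changed by -0.22 in SCL3OE against ga1-3 (95% interval -0.43 to -0.0042, limma adjusted p = 0.0915) and passed without ga1-3 replicate 1 (-0.30, adjusted p = 0.0233). AT2G37840 of the initiation kinase list changed by -0.27 (-0.54 to -0.0013, adjusted p = 0.0962). Its signals were 477, 538 and 487 in ga1-3 and 509, 375 and 375 in SCL3OE, and without SCL3OE replicate 1 it was called as lower than in ga1-3 (-0.42, limma adjusted p = 0.0155) and than in scl3-1 (-0.36, adjusted p = 0.036). Another probe set of AT2G37840 was too dim to be tested, with mean signals of 70.3 in ga1-3, 80.4 in scl3-1 and 62.6 in SCL3OE. AT2G32760 of the phosphatidylinositol 3-kinase list changed by -0.23 (-0.50 to 0.03).

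**Figure D4:**
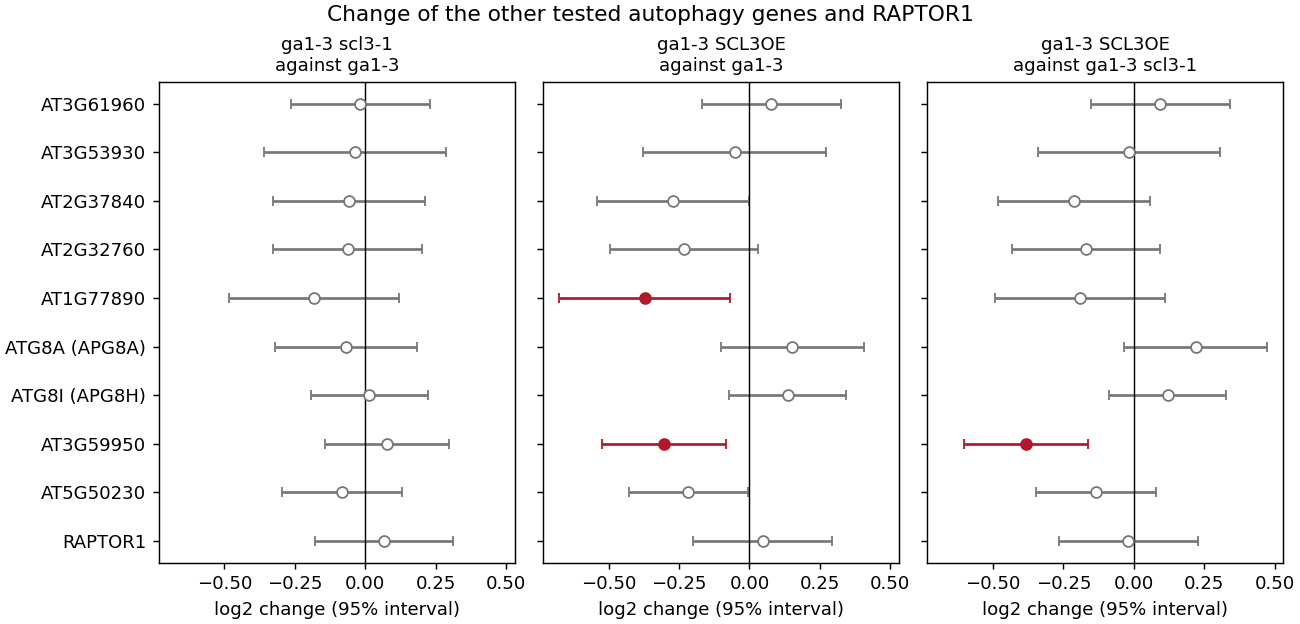
Log2 change with its 95% interval from limma for the 10 other tested genes of the autophagy lists in the 3 comparisons, with called genes in filled red. AT1G77890 and AT3G59950 are called as lower in SCL3OE against ga1-3, AT3G59950 also against scl3-1, and ATG8A and ATG8I lie to the right of 0 in both comparisons without being called.

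The scaling of the arrays bears on these small changes. Centring each array on its median moved the median change of all kept probe sets from -0.07 to 0.06 in SCL3OE against scl3-1 and from -0.07 to 0.02 against ga1-3. Of the probe sets called against ga1-3, 41.0% were higher with the deposited scaling, 48.6% after quantile normalization and 53.4% with median-centred arrays, and against scl3-1 the shares were 39.6%, 49.2% and 59.0%. The calls of ATG8D and ATG3 against ga1-3 and of ATG8D and ATG8E against scl3-1 held under both scalings. ATG8H was called as higher than in scl3-1 under both, and ATG8F and ATG8G were the genes that lost a call.

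**Figure D5:**
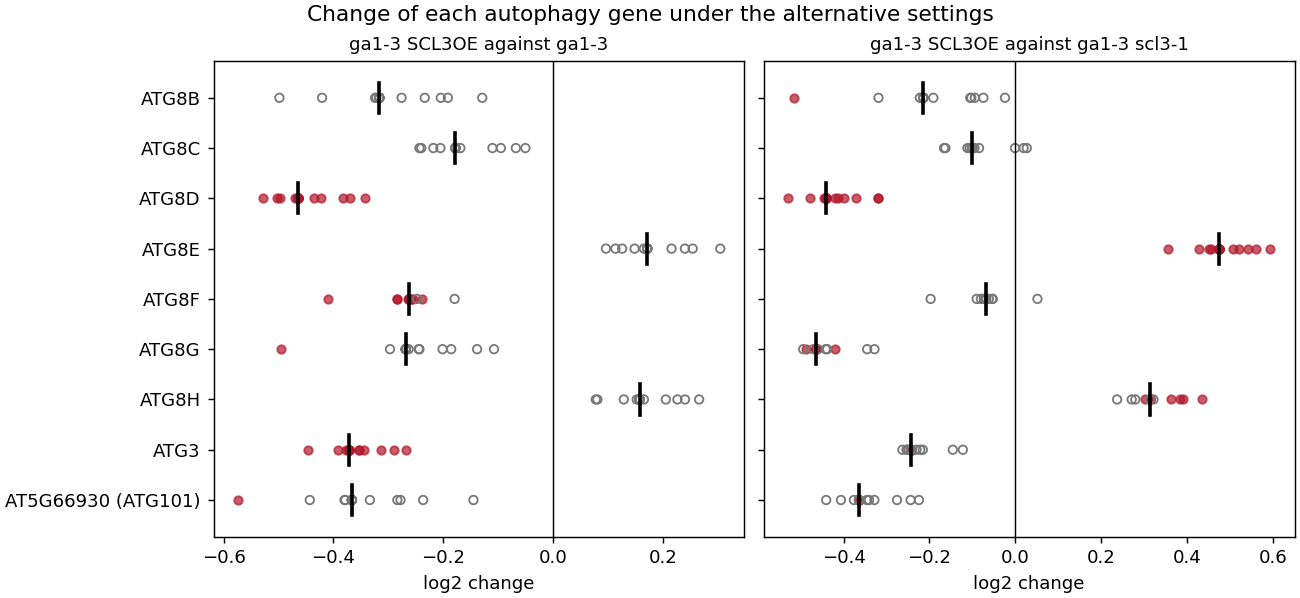
Log2 change of each autophagy gene under the 17 alternative settings, in SCL3OE against ga1-3 and against scl3-1, filled red where called at an adjusted p under 0.05 and open otherwise, with a black bar for the reported value. ATG8D and ATG3 on the left and ATG8D and ATG8E on the right are called at every setting, while ATG8G and ATG8H on the right are called at 10 of 17.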

How the data were processed

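Root RNA of 9 samples (300 ng each) was labelled with a 3' IVT kit and hybridised to 1 Affymetrix ATH1 array per sample, and seedlings grew at 22 °C in 16 h light and 8 h dark, per the labels' protocols. The deposited values, 1 per probe set, are linear MAS5 signal intensities that the authors made with Affymetrix Expression Console 1.1, per the submitters' processing notes. The 2% trimmed mean was 496 to 497 on all arrays. Signals were taken to log2. Of 22746 probe sets, 14117 were kept, those that reached the array's 40th percentile on at least 3 arrays. One model with a mean for each group, over all 9 arrays, was fitted with limma 3.58.1 (R 4.3.3, lmFit, eBayes with trend, two-sided, 6 residual degrees of freedom) and tested on simulated data. Names came from a probe table (13513 of 14016 listed probe sets with 1 gene) and a TAIR10.1 gene table, used for names only. All 9 probe sets have the plain _at suffix, and binding to related ATG8 transcripts was not tested. No sequences are shown. The number of arrays limits the precision. Replicate numbers did not pair the arrays (correlations of same-numbered deviations -0.19 to 0.18). The named genes are the 9 members, listed genes that were called or among the 4 with the smallest p in any comparison, and the 5 probe sets most like the member of widest range. The members and lists were chosen with earlier results of these data known. Alternatives were no dim filter, a 60th percentile filter, quantile normalization, median-centring, an offset of 50, eBayes without trend, a replicate block, only the 6 arrays compared, and each array left out.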

Additional observations from a re-analysis of the deposited data

How the results depend on the processing

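The number of autophagy genes called in scl3-1 against ga1-3 was 0 under all 17 alternatives. In SCL3OE against ga1-3 it was 3, 2 to 5 with 1 array left out, and 2 to 3 under the other 8 alternatives. In SCL3OE against scl3-1 it was 4, 2 to 6 with 1 array left out, and 3 to 6 under the other 8. The highest of these 8 counts, 6, was with only the 6 arrays compared. The cause of these moves was not tested. The replicate block left the counts at 0, 3 and 4, and an array's best match in another group had its own replicate number in 7 of 18 cases. The block ended the call of AT1G77890 (adjusted p = 0.0604). Of 153 values per comparison for the 9 genes, 146, 149 and 128 kept their direction and side of the threshold.

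The changes that turned sign were uncalled ones. In scl3-1 against ga1-3, leaving out 1 array gave -0.29 to 0.20 for ATG8B, -0.094 to 0.071 for ATG8D, -0.031 to 0.36 for ATG8G, -0.21 to 0.22 for AT5G66930, -0.15 to 0.043 for ATG8A, -0.045 to 0.090 for ATG8I and -0.13 to 0.020 for AT2G32760. In SCL3OE against scl3-1 it gave -0.17 to 0.027 for ATG8C. Median-centring gave -0.022 for ATG8I in scl3-1 against ga1-3, and 0.019 for ATG8C and 0.052 for ATG8F in SCL3OE against scl3-1.

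Over all kept probe sets, 76 were called in scl3-1 against ga1-3, but 36 without a dim filter, 20 by eBayes without trend, 30 with only the 6 arrays compared and 3 to 148 with 1 array left out. In both SCL3OE comparisons these counts stayed within 1.5 times the main ones. The smallest called change among the 9 genes was -0.26, that of ATG8F.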
